A study of Homo sapiens with 24 samples.

Results

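The chromosomal passenger complex was followed through its 4 core genes, AURKB, BIRC5, CDCA8 and INCENP, in LNCaP cells after knockdown of the long non-coding RNAs TAPIR-1 and TAPIR-2. A probe was taken as a member where its RefSeq accession belongs to one of the 4 genes. This gave 4 probes, 1 per gene and the same 4 on both array versions, out of 50599 probes on the array used at 24 h and 58201 on the array used at 48 h. LNCaP is an established androgen-responsive cell line from a lymph node metastasis of a prostate carcinoma. The cells were transfected transiently with a scrambled siRNA (si-SCRL), an siRNA against TAPIR-1 (si-A1) or an siRNA against TAPIR-2 (si-A2), and total RNA was hybridised to 1-colour Agilent arrays at 24 h or 48 h after the treatment. Each of these 6 groups held 4 replicates. The untransfected line was not part of the comparison, each target was represented by a single siRNA group, and the members were read in whole cultures, so that fewer cells in mitosis and less RNA per cell cannot be told apart. The 24 h samples lay on version v2 of the array and the 48 h samples on version v3, so time and array version cannot be told apart either.

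One si-A2 array at 48 h (replicate 2) stood apart from the other 48 h arrays and was left out, which left 3 si-A2 replicates at that time. The 75th percentile of its intensity was 44.9 against 116 to 176 on the other 48 h arrays, and its log2 intensities correlated with theirs at r = 0.595 to 0.66, where the others correlated among themselves at 0.963 to 0.982. Of 7 genes that mark LNCaP and luminal prostate cells, all 7 were well above background on every array kept. At 48 h 6 of the 7 varied enough to be tested, and 2 were called lower with si-A1 (adjusted p below 0.01 and a log2 difference of at least 0.5 in size), where 6.3% of all genes tested were, and 0 with si-A2. KLK2, a kallikrein of luminal prostate cells, had a log2 difference of -1.07 ± 0.16 with si-A1 (SE, limma, adjusted p = 0.00215), while TMPRSS2 (0.04 ± 0.21), FOLH1 (0.08 ± 0.17) and STEAP2 (-0.28 ± 0.16) were not called. Of 5 fibroblast genes, 2 at 24 h and 3 at 48 h were not well above background on any array, and at 48 h the others, DCN and PDGFRB, were so on all 11. Probes of the leukocyte genes PTPRC, CD3E and CD68 and the endothelial genes PECAM1, VWF and CDH5 were well above background on every 24 h array, as were PTPRC, CD3E, VWF and CDH5 on every 48 h array. Of these 11 genes 5 were tested at 24 h and 3 at 48 h, and those did not pass the test against si-SCRL (limma, adjusted p from 0.0891 to 0.993). PECAM1 was tested at 24 h through another, dim probe, well above background on 0 arrays of each group. COL1A1, COL3A1 and DCN were so on 3, 1 and 2 of 12 arrays at 24 h, so these tests say little. The part of other cell types in the results was not tested. The deposited annotation named 1 probe for TAPIR-2 at 24 h, 2 at 48 h, and none for TAPIR-1. On the normalized log2 scale the TAPIR-2 probe shared by both times read 5.04 ± 0.20 (SD, n = 4) with si-SCRL at 24 h, 4.64 ± 0.32 (n = 4) with si-A1 and 4.06 ± 0.74 (n = 4) with si-A2. At 48 h it had 4.64 ± 0.58 (n = 4), 4.82 ± 0.81 (n = 4) and 4.68 ± 0.90 (n = 3), so that at 48 h it did not set the arrays labelled si-A2 apart from the others. The second TAPIR-2 probe was well above background on 0 of the 11 arrays at 48 h.

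The chromosomal passenger complex is the mobile regulator of cell division. Aurora B, the kinase encoded by AURKB, is held and activated by the scaffold protein INCENP, and survivin (BIRC5) and borealin (CDCA8) bind the other end of INCENP and bring the complex to chromatin. The complex corrects faulty attachments of microtubules at centromeres until anaphase, then moves to the spindle midzone, where it takes part in cytokinesis. Its genes are transcribed mainly in the G2 and M phases of the cell cycle, and survivin, which belongs to the inhibitor of apoptosis family, is often abundant in tumours.

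Sequence elements common before genes of this phase were looked up in the RefSeq promoter windows of GRCh38.p14, which reach from 250 bases before a transcript's start to 50 bases after it. They are the element TTTGAA (or TTCGAA) of the cell cycle genes homology region and the CCAAT box, read on both strands. Windows were at hand for 3 of the 4 genes, AURKB, CDCA8 and INCENP. CDCA8 (chromosome 1, 37692516 to 37709719, GRCh38.p14) held TTTGAA from 23 to 18 bases before its start. It also held 3 CCAAT boxes on the opposite strand, beginning at 115, 75 and 18 bases before the start, the last of which shares a base with TTTGAA. INCENP (chromosome 11, 62124011 to 62153169) held TTTGAA from 10 to 5 bases before its start and 3 CCAAT boxes, at 107 bases on the same strand and at 71 and 28 bases on the opposite strand. The 130 bases before the start of both genes are shown because they carry the same elements, though the strands and the order of these differ. Capitals mark TTTGAA, and CCAAT or, for a box on the opposite strand, ATTGG.
CDCA8, chr1:37692386-37692515, plus strand: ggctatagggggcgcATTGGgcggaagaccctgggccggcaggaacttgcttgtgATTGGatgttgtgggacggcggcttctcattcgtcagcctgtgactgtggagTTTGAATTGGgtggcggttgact
INCENP, chr11:62123881-62124010, plus strand: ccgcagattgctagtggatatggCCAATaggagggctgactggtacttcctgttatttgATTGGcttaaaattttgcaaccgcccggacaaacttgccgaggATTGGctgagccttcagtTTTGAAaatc
In INCENP the TTTGAA element was the one nearest to the start, and in CDCA8 it ended at the first base of the nearest CCAAT box. The AURKB gene spans 8204731 to 8210575 on the minus strand of chromosome 17. Both of its windows (8210176 to 8210475 and 8210200 to 8210499) lie within that span, at transcript starts inside it, so the bases before the outermost start of AURKB were not searched. These windows held a CCAAT box on the opposite strand and no TTTGAA. None of the windows held TTCGAA or the E2F motifs TTTGGCGC, TTTCGCGC, TTTCCCGC and TTTGCCGC. Of all 35116 windows, 15.2% held TTTGAA, 34.6% held CCAAT and 5.9% held both, 1.45% held TTCGAA, and the E2F motifs were in 0.652%, 0.515%, 1.63% and 0.607% in the order given. These matches describe the sequence and do not show that a factor was bound. BIRC5 spans 78214253 to 78225635 on chromosome 17.

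At 24 h the passenger genes were lower with both siRNAs than with si-SCRL, with fitted log2 differences from -1.28 to -2.07. A gene was called where limma gave an adjusted p below 0.01 and a log2 difference of at least 0.5, over 15186 genes tested. By this rule 3 of the 4 members were called lower with si-A1, where 1.38% of all genes tested were called lower, and 4 of 4 with si-A2, where 1.38% were called lower. None was called higher. Levels are given below as log2 intensities normalized within a time point, in the order of replicates 1 to 4.

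AURKB, the kinase of the complex, had 7.66, 8.05, 8.11 and 7.51 with si-SCRL at 24 h. With si-A1 its levels were 6.33, 6.19, 6.23 and 5.84, and with si-A2 they were 6.56, 5.89, 5.85 and 6.07. All 8 knockdown values lay below the lowest si-SCRL value, and the 2 knockdown groups overlapped. The fitted log2 difference of AURKB was -1.68 ± 0.27 (SE) with si-A1 (limma, adjusted p = 0.00357) and -1.74 ± 0.27 with si-A2 (adjusted p = 0.00265). These are 3.21-fold and 3.33-fold lower levels.

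BIRC5, the survivin gene, was read by 10 spots of the same probe on each array. Its si-SCRL levels at 24 h were 9.37, 9.45, 9.36 and 9.32, its si-A1 levels 7.50, 7.36, 7.29 and 7.06, and its si-A2 levels 7.60, 7.46, 7.42 and 7.45. No knockdown array came near the narrow range of the control arrays. BIRC5 had the largest fitted fall of the 4 members with either siRNA (-2.07 ± 0.22 with si-A1 and -1.89 ± 0.22 with si-A2, limma, adjusted p = 0.000278 and 0.000419), ranking 77th of 15186 genes from the lowest with si-A1 and 119th with si-A2. The repeated spots of an array differed from each other by an SD of 0.05 to 0.115 on the log2 scale at 24 h, well under the difference between groups.

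CDCA8, the borealin gene, had 9.35, 9.35, 9.22 and 9.31 with si-SCRL at 24 h. The si-A1 arrays gave 8.11, 7.95, 7.81 and 7.62 and the si-A2 arrays 8.20, 7.51, 7.79 and 7.67. Both knockdown groups lay more than 1 log2 unit below every control array and overlapped each other. The fitted log2 difference of CDCA8 was -1.43 ± 0.24 with si-A1 (limma, adjusted p = 0.00538) and -1.51 ± 0.24 with si-A2 (adjusted p = 0.00366), which are 2.70-fold and 2.86-fold lower levels.

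INCENP, the scaffold gene, gave a signal close to its background, and part of its values are bounds. Its levels at 24 h were 4.6, 4.91, 3.99 and 4.14 with si-SCRL, 3.59, 3.30, 3.16 and 2.48 with si-A1, and 3.25, 2.80, 2.84 and 2.73 with si-A2. No knockdown value reached the lowest control value. Most of its 10 spots were well above background on 3 of the 4 si-SCRL arrays, on 1 of the 4 si-A1 arrays and on 0 of the 4 si-A2 arrays. The si-A1 difference of -1.28 ± 0.26 was not called (limma, adjusted p = 0.0175). The si-A2 difference was called (limma, fitted value -1.5 ± 0.26, adjusted p = 0.00627). Since its si-A2 arrays did not measure a level, INCENP is given there by an approximate bound, at least 1.64-fold lower. The si-A2 call held under 9 of 24 alternatives, and was lost without a slide term (adjusted p = 0.0146) and in 11 of the 12 fits that left out 1 array. Such a bound sets the mean of the brighter group against a floor for each dim array. The floor is the higher of the probe's own value and the lowest signal of any probe of that array called well above background. It is approximate, since INCENP at 3.99 on si-SCRL replicate 3 was itself not well above background and is part of the brighter mean of 4.41.

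**Figure D1:**
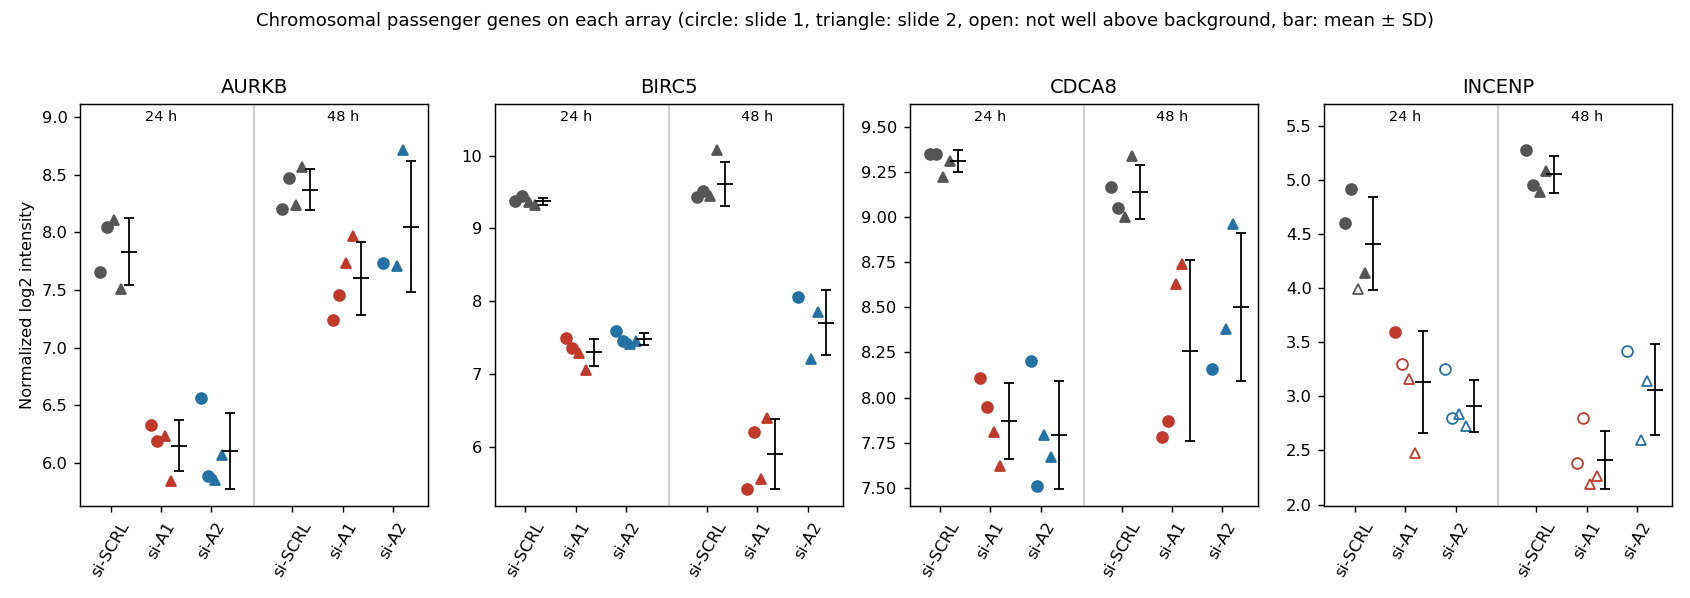
Normalized log2 intensity (vertical axis, one scale per gene) of the 4 passenger genes on each array of the 6 groups, with circles for the first and triangles for the second slide of a time point, open symbols where most spots were not well above background, and bars for the mean ± SD. At 24 h every knockdown array lay below every si-SCRL array for all 4 genes, with most INCENP knockdown values not well above background. The probes had passed a filter on spread over these arrays, and the share of all genes separated in this way was not counted. At 48 h the si-A1 arrays lay far below si-SCRL for BIRC5 and INCENP, with a smaller distance for AURKB and CDCA8.

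The 2 siRNAs were also compared with each other at 24 h. None of the 4 members was called (limma, adjusted p from 0.807 to 0.966, and 0 of 4 with an unadjusted p below 0.05), where 0.112% of all genes tested were called in either direction. The 95% confidence intervals of si-A2 minus si-A1 ran from -0.63 to 0.53 for AURKB, from -0.30 to 0.67 for BIRC5, from -0.61 to 0.45 for CDCA8 and from -0.80 to 0.34 for INCENP. Differences within these unadjusted intervals cannot be told from none with 4 replicates each, and the rule for a call can miss larger ones. In simulated data for si-A1 against si-SCRL at 24 h it called 0% of genes changed by 1 on the log2 scale. Of those changed by 2 it called 27%.

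At 48 h fewer of the members were called. With si-A1, BIRC5 and INCENP were called lower, 2 of 4 members where 6.3% of all 17469 genes tested were called lower. With si-A2, INCENP alone was called lower, 1 of 4 where 0.195% of all genes were. AURKB and CDCA8, both called at 24 h, were called with neither siRNA.

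BIRC5 had 9.43, 9.52, 9.44 and 10.07 with si-SCRL at 48 h. The si-A1 arrays gave 5.42, 6.21, 5.56 and 6.40, and the 3 si-A2 arrays (replicates 1, 3 and 4) gave 8.06, 7.21 and 7.86. The 3 groups were fully separated, with si-SCRL highest, si-A2 between and si-A1 lowest. The fitted log2 difference of BIRC5 with si-A1 was -3.72 ± 0.30 (limma, adjusted p = 8.38e-05), a 13.2-fold lower level, and ranked 25th from the lowest of all genes tested. With si-A2 the difference was -1.91 ± 0.32, 47th from the lowest of all genes tested, but its adjusted p of 0.0183 missed the threshold. The repeated spots again spread little, with an SD of 0.036 to 0.161 on the log2 scale within an array.

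In unscaled terms, the median processed intensity of the 10 BIRC5 spots at 48 h was 660 (replicate 1), 842, 820 and 1113 with si-SCRL. It was 46.5, 81.0, 44.7 and 73.0 with si-A1 and 268, 146 and 187 with si-A2. All 40 BIRC5 spots of the si-A1 arrays were still well above background, so the level stayed measurable.

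INCENP had 5.27, 4.95, 4.89 and 5.08 with si-SCRL at 48 h, with all 40 of its spots well above background. With si-A1 the values were 2.38, 2.80, 2.19 and 2.26, and 2 of 40 spots were well above background. With si-A2 they were 3.42, 2.60 and 3.14, with 5 of 30 spots well above background. Both differences were called (fitted values of -2.64 ± 0.19 with si-A1 and -1.94 ± 0.20 with si-A2, limma, adjusted p = 6.96e-05 and 0.00803). No knockdown array measured a level for the probe as a whole. By the approximate bound INCENP was at least 3.6-fold lower with si-A1 and at least 3.32-fold lower with si-A2. The si-A2 call was lost when any one of the 11 arrays was left out.

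AURKB had 8.20, 8.47, 8.24 and 8.57 with si-SCRL at 48 h. The si-A1 arrays gave 7.24, 7.46, 7.73 and 7.97, all below the lowest control value, and the si-A2 arrays gave 7.73, 7.71 and 8.71, the last of them above every control value. The difference with si-A1 was -0.77 ± 0.23 (limma, adjusted p = 0.0442) and that with si-A2 was -0.38 ± 0.25 (adjusted p = 0.483, 95% confidence interval -0.95 to 0.20). Within the slide that held replicates 1 and 2 the si-A1 difference was -0.98, and within the slide that held replicates 3 and 4 it was -0.56.

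CDCA8 had 9.17, 9.05, 9.0 and 9.34 with si-SCRL at 48 h. The si-A1 arrays gave 7.78, 7.87, 8.63 and 8.74 and the si-A2 arrays 8.16, 8.38 and 8.96. Every knockdown array lay below the lowest control array. The differences were -0.89 ± 0.21 with si-A1 (limma, adjusted p = 0.0172) and -0.72 ± 0.23 with si-A2 (adjusted p = 0.144). As for AURKB, the si-A1 difference was larger within the first slide (-1.28) than within the second (-0.49). The si-A2 differences within the slides were -0.95 and -0.50, the former from replicate 1 alone, since replicate 2 was left out. The part of the slides in the spread of both genes at 48 h was modelled as a slide term and was not tested for single genes.

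**Figure D2:**
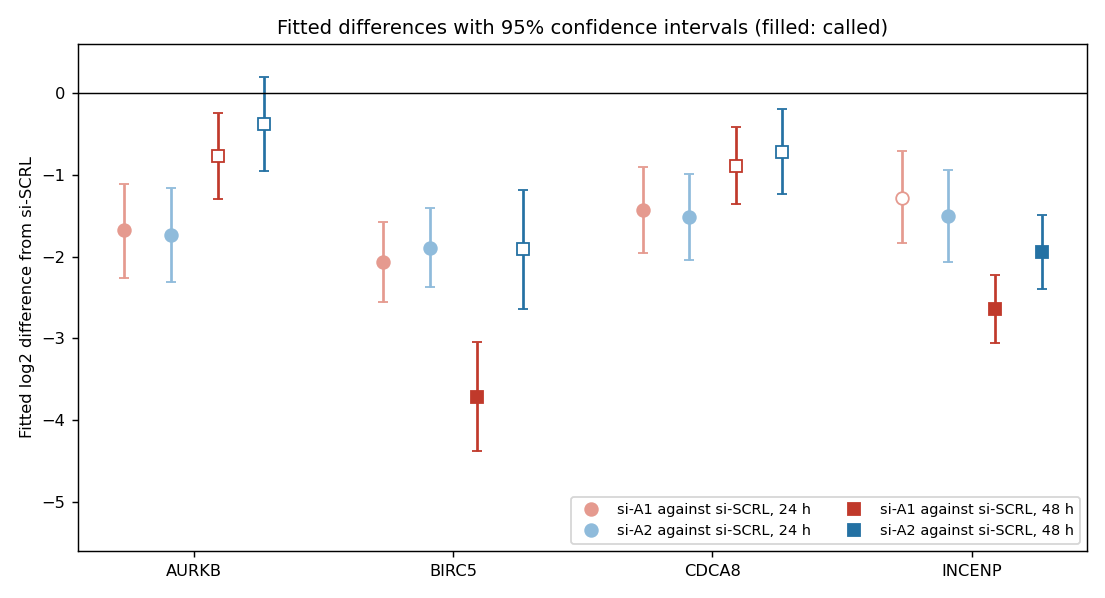
Fitted log2 difference from si-SCRL (vertical axis) of each passenger gene with its 95% confidence interval, with circles for 24 h and squares for 48 h, red for si-A1 and blue for si-A2, filled where the gene was called. The 4 genes lay between -1.28 and -2.07 at 24 h and spread from -0.38 to -3.72 at 48 h.

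Between the 2 siRNAs at 48 h none of the 4 members was called, where 1.61% of all genes tested were. BIRC5 was higher with si-A2 than with si-A1 by 1.81 ± 0.32, with no overlap between the groups, at an adjusted p of 0.0133 (limma). INCENP was not well above background in either group, so no fold is given for it. AURKB (95% confidence interval of si-A2 minus si-A1 -0.18 to 0.97) and CDCA8 (-0.35 to 0.68) overlapped between the siRNAs. Of the 4 members, 2 had an unadjusted p below 0.05 (limma), BIRC5 and INCENP, the latter from values at the background. The share of all genes below that cut-off was not counted.

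Whether the effect of an siRNA had changed between the time points was tested in a joint fit over 30250 genes measured on both array versions. No member was called for si-A1, where 0.179% of all genes were called, or for si-A2, where 0.0463% were. All 4 members had an unadjusted p below 0.05 (limma) for si-A1, INCENP among them with knockdown values near the background, and 2 of 4 for si-A2. The share of all genes below that cut-off was not counted, so these counts do not set the members apart. The directions of the fitted changes differed among the members. For si-A1 the difference of BIRC5 changed by -1.65 ± 0.30 from 24 h to 48 h (limma, adjusted p = 0.0153), whereas those of AURKB and CDCA8 were smaller in size at 48 h, with changes of 0.92 ± 0.30 (adjusted p = 0.177) and 0.57 ± 0.24 (adjusted p = 0.310). For si-A2 the change was 1.36 ± 0.31 for AURKB (adjusted p = 0.143), 0.82 ± 0.25 for CDCA8 (adjusted p = 0.384) and 0.02 ± 0.32 for BIRC5 (adjusted p = 0.996, 95% confidence interval -0.65 to 0.68). The size of the INCENP change is not given here, since its knockdown values were at the background.

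The unequal change of the members was also looked at within arrays, as the log2 ratio of 2 members on the same array, for the 3 genes that were well above background everywhere. The ratios of 3 pairs with 2 siRNAs at 2 times made 12 exact permutation tests, each counting both tails. In the pair of the 2 chromatin-binding subunits, BIRC5 fell further than CDCA8 on the fitted scale in all 4 comparisons. Relative to si-SCRL the BIRC5 to CDCA8 log2 ratio with si-A1 differed by -0.63 at 24 h and by -2.83 at 48 h, and with si-A2 it differed by -0.37 and -1.26. In each of these the ratios of knockdown and control arrays did not overlap, giving exact permutation p = 0.0286 for the si-A1 and 24 h comparisons, the smallest that 4 against 4 arrays allow. For si-A2 at 48 h it was p = 0.0571, the smallest that 3 against 4 allow in an exact test. The AURKB to BIRC5 ratio differed by 0.39 with si-A1 at 24 h and by 2.95 at 48 h (exact permutation p = 0.0286 for both), and by 0.15 (p = 0.400) and 1.58 (p = 0.0571) with si-A2. The AURKB to CDCA8 ratio overlapped between control and knockdown in all 4 comparisons, with differences from -0.25 to 0.32 and exact permutation p from 0.114 to 0.371. After Benjamini-Hochberg adjustment over the 12 tests the smallest value was 0.0686, so none passed 0.05. With so few arrays no single pair could have passed by itself after this adjustment, whatever its size.

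The fitted differences of the members were set beside those of all genes tested. The median over all genes was 0.02 for both siRNAs at 24 h, and 0.11 for si-A1 and 0.03 for si-A2 at 48 h. At 24 h the members with si-A1 ranked from 77th (BIRC5) to 388th (INCENP) from the lowest of 15186 genes. The INCENP rank rests on 1 of 4 si-A1 arrays well above background. At 48 h with si-A1 BIRC5 ranked 25th of 17469 genes, CDCA8 1479th and AURKB 1902nd. INCENP has only a bound there and is given no rank.

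**Figure D3:**
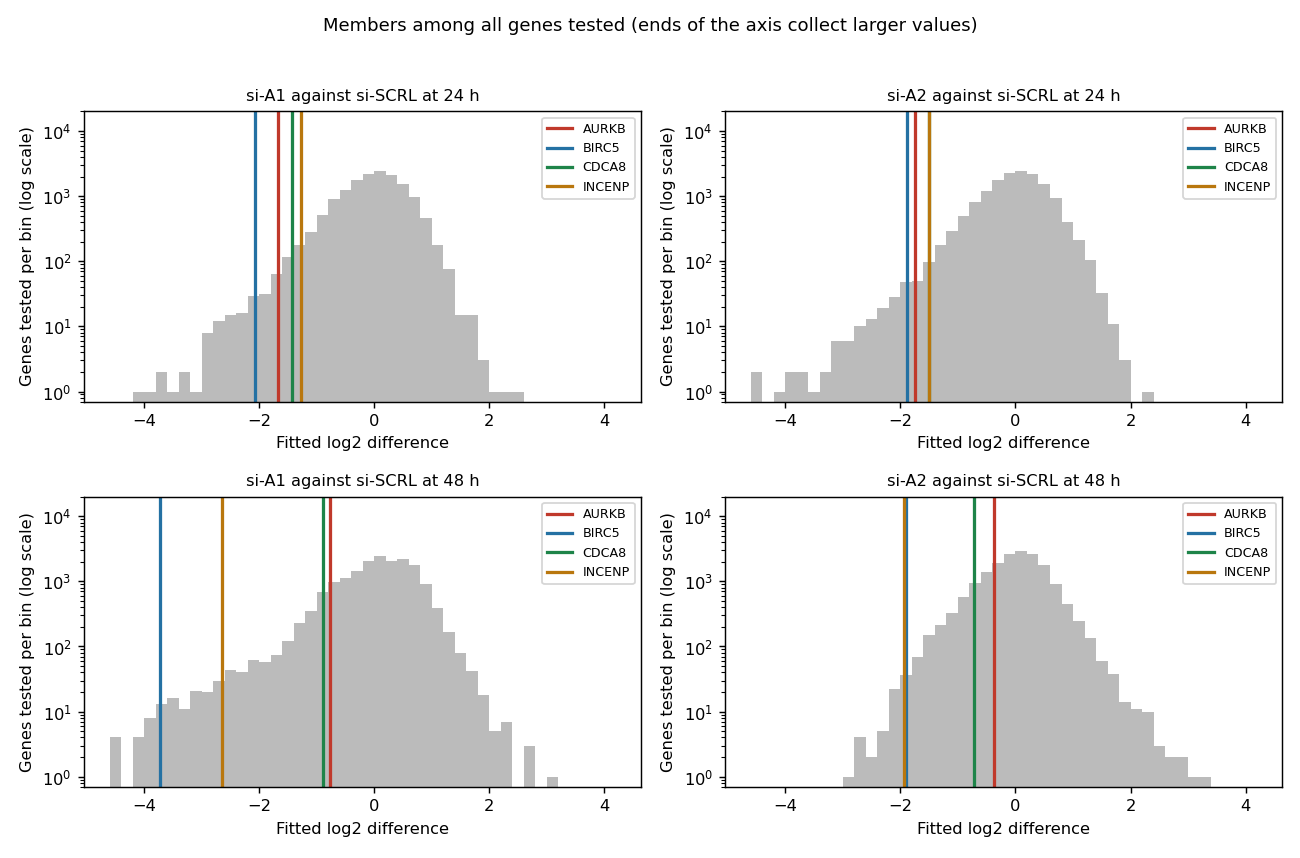
Number of genes tested (log axis) by fitted log2 difference from si-SCRL in 0.2-wide bins, for both siRNAs and both times, with the 4 passenger genes as coloured lines at their fitted values, which for INCENP with si-A2 at 24 h and both siRNAs at 48 h stand for a bound. The INCENP line with si-A1 at 24 h rests on 1 of 4 si-A1 arrays well above background. At 24 h the lines stood together in the lower tail (CDCA8 at -1.51 and INCENP at -1.5 coincide for si-A2), and at 48 h BIRC5 and INCENP stood in the tail while CDCA8 and AURKB stood nearer to the bulk.

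The genes that place, use or oppose the complex were counted from 5 lists with 25 genes in all. At 24 h 16 of them were tested. With si-A1 4 were called lower and 0 higher, beside 1.38% of all genes called lower, with a median log2 difference of -1.25 beside 0.02 over all genes. With si-A2 6 were called lower and 0 higher, beside 1.38%, with a median of -1.57 beside 0.02. At 48 h 18 were tested, of which 13 were called lower and 0 higher with si-A1, beside 6.3% of all genes (median -2.06 beside 0.11), and 4 lower and 0 higher with si-A2, beside 0.195% (median -1.45 beside 0.03). With genes that were not well above background set at their bound or left out, the medians were -1.25, -1.70, -2.05 and -1.36 in the same order. The 4 calls with si-A2 at 48 h were all lost when any one of the 11 arrays was left out, without a slide term and with the replicate number as a block, while the si-A1 count at 48 h ranged from 12 to 14 with 1 array left out. At 24 h the si-A1 count fell to 0 without si-A1 replicate 2 or 3, to 1 without si-A1 replicate 4 and to 2 without si-SCRL replicate 1 or 2, and the si-A2 count to 2 without si-A2 replicate 2 and to 3 without si-A2 replicate 3 or si-SCRL replicate 2.

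Of the centromere genes, HASPIN, the kinase whose mark on histone H3 survivin binds, fell at 24 h, with fitted log2 differences of -1.89 ± 0.27 for si-A1 and -2.68 ± 0.27 for si-A2, in the latter with 1 of 4 arrays well above background. BUB1, the kinase that marks histone H2A at centromeres, fell with si-A2 at 24 h (-1.87 ± 0.29), and was not called with si-A1 (-1.38 ± 0.29). The shugoshin SGO1, which reads that mark, fell by the same test (-2.69 ± 0.44 with si-A1 and -2.87 ± 0.44 with si-A2), and was well above background on 2 and 1 of 4 arrays. Of 12 fits at 24 h that left out 1 array, SGO1 was called in 5 with si-A1 and in 8 with si-A2. HASPIN was called in 10 and 12 of them, and BUB1 in 9 with si-A2. At 48 h BUB1 (-2.06 ± 0.25, over 3 si-A1 arrays, a flagged spot being left out), HASPIN, SGO1, SGO2 and CBX5 all fell with si-A1. Only CBX5, which encodes the heterochromatin protein HP1 alpha, also passed with si-A2 (-1.34 ± 0.17), a call lost with any 1 array left out (adjusted p from 0.0188 to 0.043). BUB1 (-1.36 ± 0.25), HASPIN (-1.36 ± 0.44), SGO1 (-1.61 ± 0.29) and SGO2 (-1.61 ± 0.22) were lower with si-A2 as well. They were not called (limma, adjusted p from 0.0115 to 0.148). RCC2 did not pass the variability filter at either time.

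Of the midzone genes, none was called at 24 h (KIF20A, -1.02 ± 0.23 with si-A1 and -1.20 ± 0.23 with si-A2). At 48 h all 3 fell with si-A1. KIF20A, the kinesin that carries the complex to the midzone, fell with both siRNAs (-3.29 ± 0.22 with si-A1 and -1.87 ± 0.24 with si-A2), though with any 1 array left out the si-A2 call was lost (adjusted p from 0.0178 to 0.043). KIF23 and RACGAP1, which together form centralspindlin, fell with si-A1 (-1.05 ± 0.17 and -3.08 ± 0.33), the latter with 1 of 4 arrays well above background, and had -0.63 ± 0.18 and -1.83 ± 0.36 with si-A2, which did not pass.

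Of the Aurora B substrates, NDC80, whose tail is phosphorylated at faulty attachments, fell at 24 h (-2.40 ± 0.44 with si-A1 and -2.80 ± 0.44 with si-A2). With 1 array left out, NDC80 was called in only 2 of 12 fits with si-A1 (limma, adjusted p from 0.00385 to 0.0326) and in 8 with si-A2. The microtubule-depolymerising kinesin KIF2C fell with si-A2 at 24 h (-1.53 ± 0.23), a call kept in 8 of 12 such fits. With si-A1 it had -1.13 ± 0.23, which was not called. At 48 h NDC80, KIF2C, STMN1 and CENPA fell with si-A1. With si-A2 NDC80 (-1.74 ± 0.36) and KIF2C (-1.54 ± 0.21) were lower but not called (limma, adjusted p = 0.0326 and 0.0114). STMN1 (-1.99 ± 0.20) and CENPA fell with si-A2. Both si-A2 calls were lost with any 1 array left out (adjusted p from 0.0151 to 0.043 for STMN1). CENPA, the centromeric histone, was not well above background on any knockdown array. By the approximate bound it was at least 2.61-fold lower with si-A1 and at least 2.40-fold lower with si-A2. Vimentin (VIM) was not called, with -1.42 ± 0.52 for si-A1 and 0.54 ± 0.56 for si-A2 at 48 h.

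Of the opposing phosphatase genes, CDCA2, which encodes the targeting factor Repo-Man, fell at 24 h (-1.75 ± 0.27 with si-A1 and -1.91 ± 0.27 with si-A2) and with si-A1 at 48 h (-3.73 ± 0.36). With si-A2 at 48 h it had -1.56 ± 0.39, which was not called (limma, adjusted p = 0.0642). With 1 array left out, its 24 h calls held in 8 of 12 fits with si-A1 and in all 12 with si-A2. The catalytic subunit PPP1CC was not called with si-A1 at 48 h (-0.65 ± 0.14). PPP1CB was tested only through a dim probe, well above background on 1 of 4 si-SCRL arrays, which was not called, and PPP1CA, PPP1R7 and PPP2R5C did not pass the variability filter. Of 5 genes that act on the complex through ubiquitin, 2 were tested at each time (KLHL9 and KLHL13 at 24 h, CUL3 and USP9X at 48 h) and none of these was called. CUL3 had -0.87 ± 0.19 with si-A1 at 48 h, and USP9X was well above background on 0 of 4 si-A1 arrays there. No value shown here bears on Aurora B activity itself, since RNA alone was measured.

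**Figure D4:**
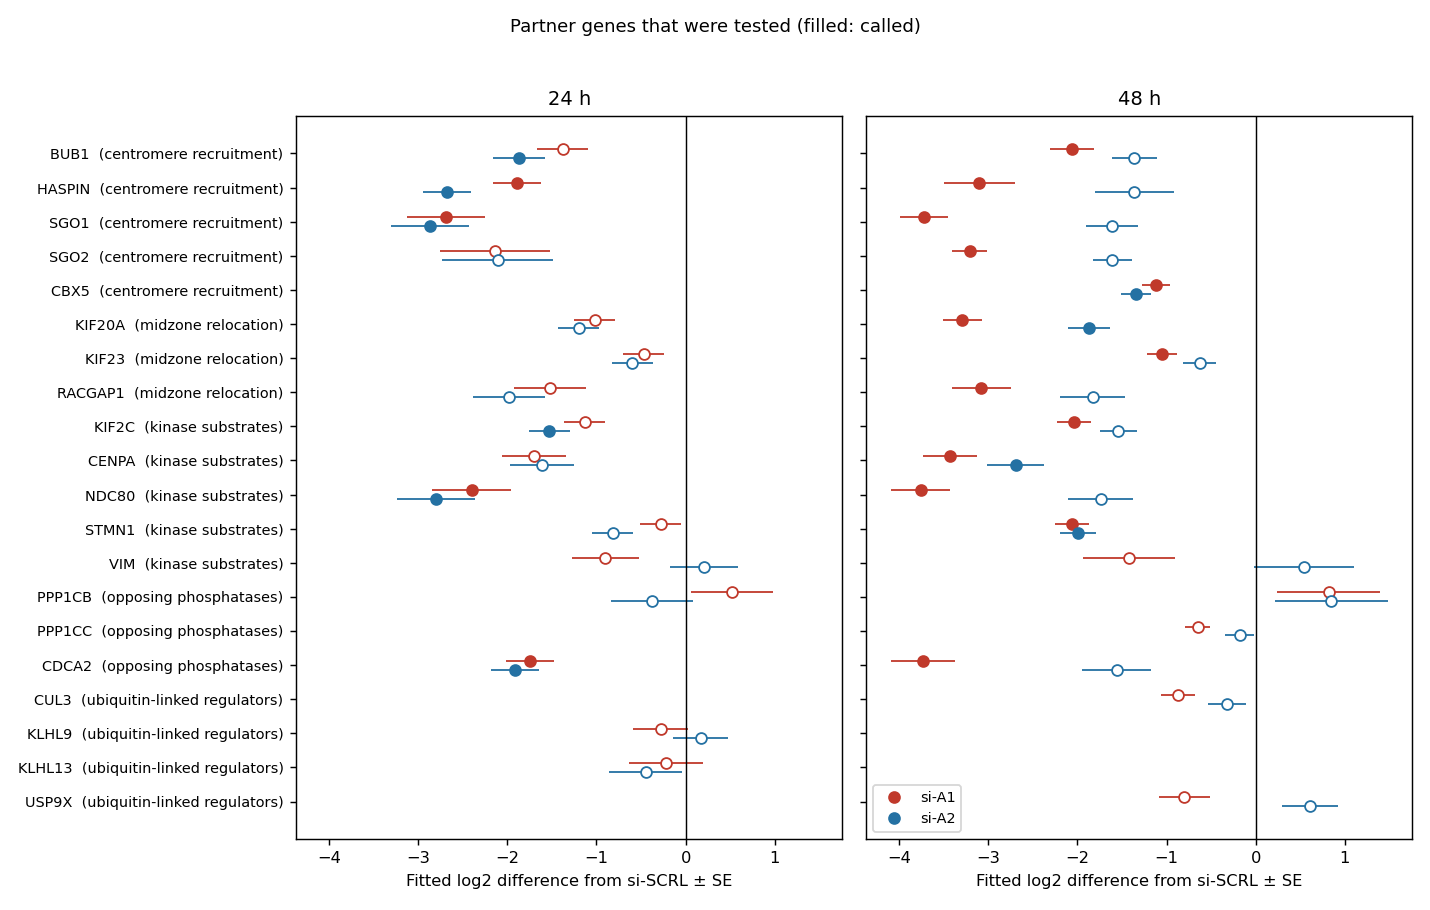
Fitted log2 difference from si-SCRL ± SE (horizontal axis) of the partner genes that passed the filters, by list and time, with si-A1 in red and si-A2 in blue, filled where called. At 48 h 13 of the 18 tested genes were called with si-A1 and 4 with si-A2, all of them lower.

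Of the relatives of the members, AURKA, which encodes the spindle pole kinase Aurora A, was not called at 24 h (-1.05 ± 0.24 with si-A1 and -1.13 ± 0.24 with si-A2) and fell at 48 h (-2.84 ± 0.19 with si-A1 and -1.71 ± 0.21 with si-A2, limma, adjusted p = 6.06e-05 and 0.00892). The si-A2 call of AURKA was lost with any 1 array left out (adjusted p from 0.0178 to 0.043). AURKC, the Aurora kinase of germ cells, did not pass the variability filter. Of 7 other inhibitors of apoptosis 1 was tested at 24 h (BIRC6, well above background on 4 of 12 arrays) and 2 at 48 h (BIRC3, on 5 of 11 arrays, and NAIP, on 11 of 11). None of these was called, and NAIP had -0.02 ± 0.22 with si-A1, so for most of the family no test was made. BIRC2 and XIAP did not pass the variability filter at either time.

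The genes whose profiles were most like the mean profile of the members were named as a description. At 24 h, over 12 arrays and 36591 genes, they were KIFC1 (Pearson r = 0.993), TOP2A (0.991), ZNF367 (0.991), FANCA (0.991) and GINS2 (0.990). At 48 h, over 11 arrays, they were H2AC17 (0.999), H1-2 (0.994), CKS1B (0.992), TACC3 (0.990) and NCAPD3 (0.990). The arrays share the 3 treatment groups, so these values follow mainly the difference between knockdown and control.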

How the data were processed

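LNCaP arrays were read by the authors with Agilent Feature Extraction 11.5.1.1, and the deposited processed intensity was background-corrected by that software. The authors also deposited quantile-normalized log2 values, made with R 3.4.3 and limma 3.34.8 and named for hg38; these served as an alternative. Here, log2 processed intensities were quantile-normalized within each time point, outlier spots were left out, and spots of a probe were averaged. A probe was kept if it exceeded the mean plus 3 SD of the 308 negative controls on 3 or more arrays, and if its interquartile range across arrays was not below 0.5. The brightest probe stood for a gene, which was named through RefSeq (GRCh38.p14). RefSeq matched 57.4% of probes at 24 h and 53.4% at 48 h. limma 3.58.1 in R 4.3.3 was fitted with group and slide over all 3 groups of a time point, with Benjamini-Hochberg adjustment over all genes. The change between times was fitted over all 23 arrays, normalized together, without the interquartile filter.

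The members and the gene lists were chosen with earlier results of these data known. The result of 1 gene of the LNCaP marker list is not reported here. The text names the members, the listed partner genes that were called with some that were not, and the 5 genes most like the members at each time. Median intensity ranged from 24.4 to 57.2 at 24 h and from 20.4 to 32.3 at 48 h, and 58.5% to 71.7% of probes were well above background. No spot was saturated, and the number of arrays limits the precision. Replicates were biological per the study's methods. The fit was tested on simulated data for si-A1 against si-SCRL: of 100 genes changed by 2 on the log2 scale it called 27% at 24 h (15166 genes) and 40% at 48 h (17325 genes), and of 100 changed by 1 it called 0% and 6%.

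Replicate numbers were checked for pairing. At 24 h the deviations of same-numbered arrays from their group means correlated at -0.15 to 0.19. Other arrays of the same slide gave -0.06 to 0.15, so no pairing by number was seen. At 48 h same-numbered arrays correlated at 0.19 to 0.35 and other arrays of the same slide at 0.12 to 0.30. Once the slide was fitted the values were -0.27 to -0.03 and -0.25 to -0.13. Fitting the slide itself lowers correlations within it, so these values do not decide on pairing. Blocked values are given with the alternatives.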

Additional observations from a re-analysis of the deposited data

Results flagged for a closer look

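BIRC5 in replicate 4 of si-SCRL at 48 h had a normalized log2 intensity of 10.07, while the other 3 replicates had 9.43 to 9.52; its gap to the nearest was 0.851 of the range of the group. It was the only one of 20 sets of 4 arrays tested for an outlying array that exceeded the critical value, and chance alone flags about 1 in 20 such sets. On the si-A2 array at 48 h that was left out, AURKB had 12.36 and CDCA8 had 12.65 when all 12 arrays were normalized together, above the highest si-SCRL values of 8.45 and 9.25. On the same array BIRC5 had 7.73, within the 7.07 to 7.93 of the other si-A2 arrays, and INCENP had 1.42, below their lowest value of 2.59.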

How the results depend on the processing

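BIRC5 was called lower at 24 h with both siRNAs under all 25 alternatives tried for each. AURKB and CDCA8 kept their lower direction at 24 h under all 25 alternatives with either siRNA, and were called under 17 and 13 of them with si-A1 and under 20 and 17 with si-A2. At 48 h with si-A1, BIRC5 was called under 24 of 25 alternatives and INCENP under 23 of 24, the exception for both being the fit that kept the dim array. That fit called 0 members with si-A1 and 0 with si-A2 at 48 h, 0 of 20651 genes in all, and turned the si-A2 differences of AURKB and CDCA8 to 0.78 and 0.41. The cause was not tested.

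With the replicate number as a block, the members called at 24 h were 1 with si-A1 and 2 with si-A2, and at 48 h 0 with si-A2. Over all genes this fit called 116 and 141 of 15186 at 24 h, and 0 of 17469 with si-A2 at 48 h. INCENP with si-A2 at 48 h then had an adjusted p of 0.029. BIRC5 was called for a changed si-A1 effect between times (1 member, beside 33 of 30250 genes, adjusted p = 0.00839). The block changed no other count of members. With only the groups compared in the fit, 1 member was called with each siRNA at 24 h and 0 with si-A2 at 48 h. Over all genes this fit called 65 of 12668 with si-A1 and 88 of 13483 with si-A2 at 24 h. At 48 h it called 0 of 12674 with si-A2. Without a slide term 0 were called with si-A2 at 48 h, beside 0 of 17469 genes. The filter on probes well above background gave 2 with si-A2 and 1 between the siRNAs (BIRC5) at 48 h, beside 295 and 723 of 11920 genes. The slide as a random block and normexp background correction each gave 1 between the siRNAs (BIRC5) at 48 h, beside 222 of 17469 and 576 of 2894 genes. At an adjusted p below 0.05, 4 were called with si-A1, 2 with si-A2 and 1 between the siRNAs at 48 h, beside 3699, 642 and 1197 of 17469 genes. That threshold also called 1 for a changed si-A1 effect, beside 227 of 30250 genes. Scaling on the 75th percentile (INCENP) and normexp (BIRC5) each gave 1 for a changed si-A1 effect, beside 65 of 30646 and 145 of 28859 genes. The si-A1 values of INCENP at 48 h were at the background.

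Leaving out 1 array at a time, the count at 24 h ranged from 1 to 3 with si-A1 and from 1 to 4 with si-A2. It was 1 with si-A1 without any si-A1 replicate, si-SCRL replicate 2 or si-SCRL replicate 3, and 1 with si-A2 without si-SCRL replicate 2 or si-A2 replicate 2, 3 or 4; BIRC5 was the gene left. At 48 h it was 2 throughout with si-A1 and 0 throughout with si-A2, and for a changed si-A1 effect it ranged from 0 to 1, BIRC5 being called without si-A1 replicate 4 or si-A2 replicate 3 at 48 h. Over all genes, these fits called 0.581% to 1.1% with si-A1 and 0.731% to 1.39% with si-A2 at 24 h. At 48 h they called 4.52% to 9.08% with si-A1 and between 0 and 1 gene with si-A2. The other alternatives tested different numbers of genes. At 24 h they called 65 to 516 with si-A1 (0.513% to 32.7% of those tested) and 88 to 430 with si-A2 (0.653% to 24.8%). At 48 h they called 0 to 3699 (0% to 50%) and 0 to 642 (0% to 14.7%). The largest of these shares came with normexp, which tested 1578 genes at 24 h and 2894 at 48 h. Small differences that were never called changed sign: AURKB between the siRNAs at 24 h ranged from -0.19 to 0.06 and CDCA8 from -0.20 to 0.06. The change of the si-A2 effect between times ranged from -0.26 to 0.28 for BIRC5 and from -0.09 to 0.21 for INCENP, and was -0.04 for BIRC5 and -0.14 for INCENP with normexp, -0.39 for INCENP with scaling on the 75th percentile and -0.36 with the dim array kept. Signal over background limits INCENP, including its changes between times just given. Its spots mostly failed the test against background in both knockdown groups at both times. With si-A1 at 24 h 9 of 40 were well above background.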
